A study of Mus musculus with 14 samples.

Results

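The 9 genes described here, Pou3f1, Nr2f2, Dkk3, Spink8, Nectin3, Fibcd1, Wfs1, Ociad2 and Mpped1, are markers of the pyramidal cells of hippocampal fields CA1 to CA3, taken here as a gauge of tissue that may be carried along when the dentate gyrus is cut free. The rule picks them by symbol alone, and each of the 9 was found once among the 55291 gene rows of the deposited count tables. All 9 passed the expression filter, which left 22150 genes. The data were polyadenylated RNA of single dentate gyri from mouse entorhino-hippocampal slice cultures, prepared at postnatal day 4 to 5 and matured for 18 days or longer. 8 libraries came from APP-deficient cultures (APPko, APP-/-, a gene-targeted line) and 6 from wildtype cultures (C57BL/6J, APP+/+). The loss of App in APPko is present in every cell from the start of development. The labels do not say which libraries share an animal or whether the genotypes were littermates, so the p-values rest on the spread from one culture to the next.

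The hippocampus passes signals from the granule cells of the dentate gyrus to the pyramidal cells of CA3, and from there to CA1. In the slice the fields lie side by side. The tip of CA3 reaches into the hilus between the blades of the granule cell layer, where mossy cells and many interneurons also lie. Markers of a field are rarely exclusive to it, and some of the 9 genes are known in other cells too. Nr2f2 in particular is widely used as a marker of a class of cortical and hippocampal interneurons.

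Total counts were between 16686909 and 31031126 per library. App had 214 ± 17.9 CPM (read counts scaled to library size, here by TMM) in APPko and 809 ± 131 CPM in wildtype (SD, n = 8 and n = 6), with no overlap between the genotypes (log2 change -1.92, edgeR quasi-likelihood test, adjusted p = 9.19e-09). Wildtype libraries 2 and 3 stood apart in their scaling factors, which were 0.852 and 0.847 against 0.976 or more in the others. The count columns of 7 APPko and 3 wildtype libraries end in the letter f, and those of 1 APPko and 3 wildtype libraries in m.

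The 9 markers covered a wide range of levels. Ordered by CPM divided by exon length in kilobases (RPKM), Ociad2 averaged 139 RPKM over the 14 libraries, Dkk3 52.6 RPKM and Nr2f2 12.0 RPKM. Nectin3 followed with 6.29 RPKM, Mpped1 with 4.99 RPKM, Spink8 with 3.86 RPKM and Wfs1 with 3.24 RPKM. Pou3f1 averaged 2.65 RPKM and Fibcd1 0.830 RPKM. None of the 9 was absent from any library. The upper end of the order was stable, since Ociad2 lay above Dkk3, Dkk3 above Nr2f2 and Nr2f2 above Nectin3 in 8 of 8 APPko and 6 of 6 wildtype libraries. Further down, neighbours changed places between libraries. Nectin3 lay above Mpped1 in 6 of 8 APPko and 3 of 6 wildtype libraries, Spink8 above Wfs1 in 2 of 8 APPko and 4 of 6 wildtype libraries, and Wfs1 above Pou3f1 in 7 of 8 APPko and 3 of 6 wildtype libraries. On the same scale the granule cell transcription factor Prox1 averaged 18.4 RPKM, so Ociad2 and Dkk3 stood above this defining gene of the dentate gyrus and the other 7 markers below it. The order depends on the gene chosen for comparison. Calb1, the highest of the listed granule cell markers, averaged 72.8 RPKM, below Ociad2 and above Dkk3.

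The dissected tissue held RNA of many cell types beside granule cells. The neuropeptide gene Sst, a marker of somatostatin interneurons, averaged 804 RPKM, and the astrocyte glutamate transporter gene Slc1a3 averaged 256 RPKM. Neurod6, a transcription factor gene of pyramidal neurons, averaged 104 RPKM, above Prox1, and Calb2, which marks mossy cells and some interneurons, averaged 80.4 RPKM. Summed over the 9 markers, the level was 177 to 267 RPKM in APPko libraries and 138 to 390 RPKM in wildtype libraries. The 15 granule cell markers summed to 123 to 202 RPKM in APPko and 171 to 294 RPKM in wildtype. Ociad2 makes up most of the first sum, so it says little about the other members.

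None of the 9 markers differed between the genotypes past an adjusted p of 0.05 (edgeR quasi-likelihood test, Benjamini-Hochberg over 22150 genes), where 521 of all tested genes did (2.35%), 209 higher in APPko (0.944%) and 312 lower in APPko (1.41%). DESeq2 and limma's voom also called 0 of 9. At an unadjusted p under 0.05, edgeR gave 1 of 9 markers, Pou3f1, beside 20.4% of all tested genes. Fitted log2 changes were positive for 2 markers and negative for 7, with a median of -0.24, against -0.01 over all tested genes. The ranges of APPko and wildtype overlapped for each of the 9. In bulk tissue, fewer cells of a type and less RNA per cell cannot be told apart.

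**Figure D1:**
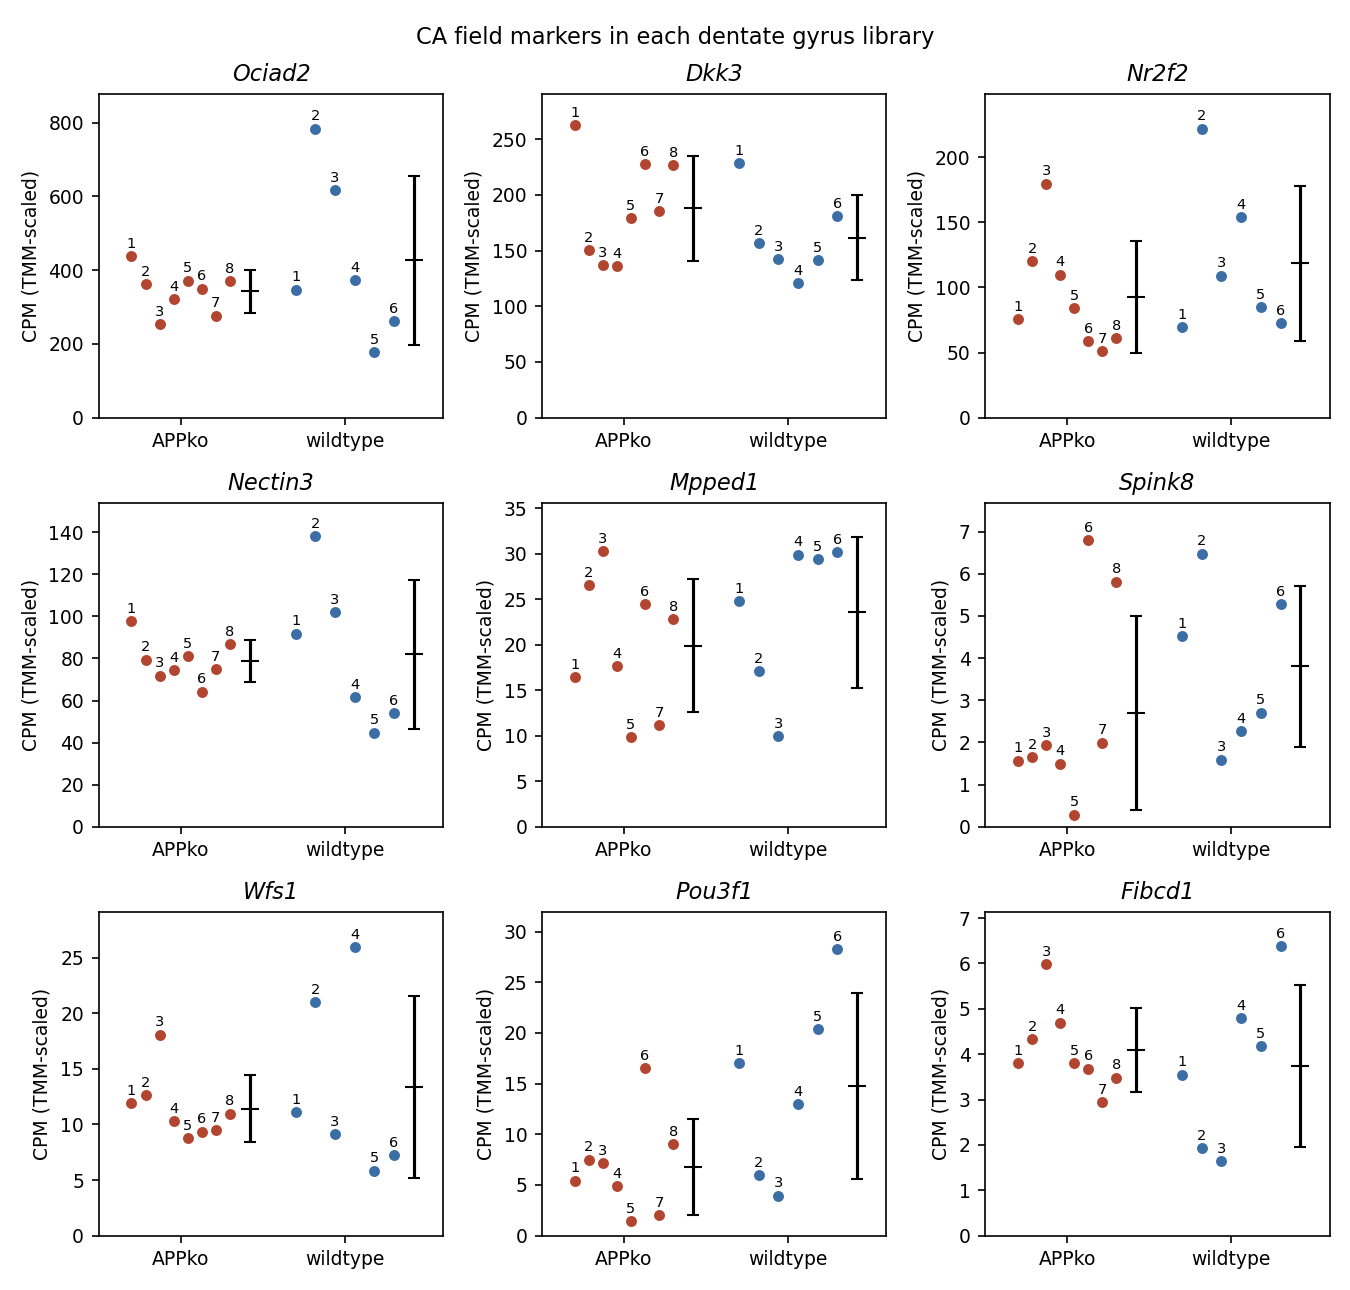
TMM-scaled CPM (y axis) of each of the 9 CA field markers in 8 APPko libraries (red) and 6 wildtype libraries (blue), numbered by replicate, with mean and SD as black bars. In every panel the genotypes overlap, and wildtype libraries 2 and 3 are the highest of all 14 for Ociad2 and Nectin3.

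Among the members, 2 are transcription factor genes. Pou3f1 encodes a POU-domain factor, also known as Oct6, that marks CA1 pyramidal cells and parts of cortex. Its lowest, median and highest levels were 1.41, 6.28 and 16.6 CPM in APPko libraries, against 3.95, 15 and 28.3 CPM in wildtype libraries. 7 of the 8 APPko libraries lay below 9 CPM, and 4 of the 6 wildtype libraries lay above 12 CPM. However, APPko library 6 lay close to wildtype library 1, and wildtype libraries 2, 3 and 4 lay inside the APPko range. The mean was 6.74 ± 4.75 CPM in APPko and 14.8 ± 9.13 CPM in wildtype (SD, n = 8 and n = 6), a fitted log2 change of -1.12 with a standard error of 0.48 that did not pass the adjustment (edgeR adjusted p = 0.20). Without wildtype libraries 2 and 3 it was -1.53 (edgeR adjusted p = 0.246), and among f libraries alone it was -0.48 (edgeR adjusted p = 0.649). The 3 wildtype m libraries held 13.0, 20.4 and 28.3 CPM, while the wildtype f libraries held 17.0, 5.97 and 3.95 CPM. With the suffix as a term in the fit the log2 change was -0.66 (edgeR adjusted p = 0.484). An antisense gene, Gm2164, shares 8.57% of the Pou3f1 exon length and had 6 counts in all libraries together.

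Nr2f2 encodes COUP-TFII, an orphan nuclear receptor. Its lowest, median and highest levels were 51.1, 79.99 and 180 CPM in APPko libraries, against 69.4, 96.9 and 222 CPM in wildtype libraries. APPko library 3 and wildtype library 2 were the highest of their genotypes, and the other libraries of both genotypes overlapped. The mean was 92.5 ± 42.8 CPM in APPko and 119 ± 59.5 CPM in wildtype (SD, n = 8 and n = 6), a log2 change of -0.36 whose 95% interval was -0.97 to 0.25. An antisense gene, B130024G19Rik, overlaps 7.46% of its exon length and had 1263 counts over all libraries. The strand setting of the counting is not given in the sources used here, so reads of that overlap may belong to either gene.

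The next group acts outside the cell or at its surface. Dkk3 encodes a secreted glycoprotein of the Dickkopf family. It ran from 136 to 262 CPM in APPko libraries, with a median of 182 CPM, and from 121 to 229 CPM in wildtype libraries, with a median of 149 CPM. It was the steadiest of the 9 in wildtype, and its log2 change of 0.22 had a 95% interval of -0.13 to 0.57. Spink8, which encodes a Kazal-type inhibitor of serine proteases, was the most uneven of the 9 in APPko. Its lowest, median and highest levels were 0.282, 1.79 and 6.80 CPM in APPko libraries, against 1.59, 3.61 and 6.48 CPM in wildtype libraries. In APPko the 2 libraries with high Spink8, 6 and 8, held 6.80 and 5.81 CPM while the other 6 held less than 2 CPM, and the lowest, library 5, rested on 8 counts. Its log2 change was -0.49 with a 95% interval of -1.48 to 0.51, wide enough to hold a large fall as well as a rise.

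Nectin3 encodes an immunoglobulin-like adhesion molecule of cell junctions and synapses, and is enriched in CA3. It ran from 64.2 to 97.7 CPM in APPko libraries, with a median of 77.2 CPM, and from 44.7 to 138 CPM in wildtype libraries, with a median of 76.7 CPM. The APPko libraries lay close together inside the wildtype range, and the log2 change was -0.06 with a 95% interval of -0.47 to 0.35. Fibcd1 encodes a membrane receptor with a fibrinogen-like domain and is a marker of dorsal CA1. Per length it was the lowest member. Its level was between 2.94 and 5.98 CPM in APPko libraries with a median of 3.80 CPM, and between 1.64 and 6.38 CPM in wildtype libraries with a median of 3.86 CPM. Both ends of that wildtype range lay outside the APPko range, and the log2 change was 0.13 with a 95% interval of -0.41 to 0.66.

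The last group sits inside the cell. Wfs1 encodes wolframin, a membrane protein of the endoplasmic reticulum and a common marker of CA1. Its lowest, median and highest levels were 8.74, 10.6 and 18.1 CPM in APPko libraries, against 5.86, 10.1 and 26.0 CPM in wildtype libraries. 7 APPko libraries held less than 13 CPM and library 3 stood above them, while among the wildtype libraries 2 and 4 held 21.0 and 26.0 CPM and the other 4 held 11.1 CPM or less. The log2 change was -0.24 with a 95% interval of -0.82 to 0.35. Ociad2, the gene of a protein with an OCIA domain, ran from 253 to 438 CPM in APPko libraries, with a median of 356 CPM, and from 177 to 783 CPM in wildtype libraries, with a median of 360 CPM. Wildtype libraries 2 and 3 held 783 and 617 CPM, above every APPko library, and wildtype libraries 1, 4, 5 and 6 held 177 to 373 CPM. Mpped1 encodes a protein with a metallophosphoesterase domain. It ran from 9.84 to 30.3 CPM in APPko libraries, with a median of 20.2 CPM, and from 9.92 to 30.2 CPM in wildtype libraries, with a median of 27.1 CPM. The ends of both ranges were alike, and its log2 change was -0.24 with a 95% interval of -0.79 to 0.30. For Ociad2 the log2 change was -0.32, with a 95% interval of -0.83 to 0.20.

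The 9 genes lie on 7 chromosomes in GRCm38. Nectin3 (ENSMUSG00000022656.15) lies on chromosome 16 at 46387706 to 46498525 and Ociad2 (ENSMUSG00000029153.11) on chromosome 5 at 73322199 to 73341028. Wfs1 (ENSMUSG00000039474.13) is on the same chromosome 5 at 36966104 to 36989205. Nr2f2 (ENSMUSG00000030551.14) and Dkk3 (ENSMUSG00000030772.6) share chromosome 7, at 70351944 to 70366735 and 112116017 to 112159057. Pou3f1 (ENSMUSG00000090125.3) is on chromosome 4 at 124656807 to 124660655 and Fibcd1 (ENSMUSG00000026841.7) on chromosome 2 at 31813290 to 31846005. Spink8 (ENSMUSG00000050074.12) is on chromosome 9 at 109812280 to 109826633 and Mpped1 (ENSMUSG00000041708.12) on chromosome 15 at 83779467 to 83858494.

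RefSeq start sites on GRCm38.p6 were given for 6 of the 9 members. The stretches of 250 bases before the start are shown for 2 pairs whose levels went closely together in 1 genotype, Nectin3 with Ociad2 in wildtype and Fibcd1 with Nr2f2 in APPko. The starts used for Nectin3 and Ociad2 lie inside the gene models of the deposited annotation. Capitals mark the GC box GGGCGG or its reverse complement CCGCCC.
Nectin3, chr16:46496968-46497217, minus strand: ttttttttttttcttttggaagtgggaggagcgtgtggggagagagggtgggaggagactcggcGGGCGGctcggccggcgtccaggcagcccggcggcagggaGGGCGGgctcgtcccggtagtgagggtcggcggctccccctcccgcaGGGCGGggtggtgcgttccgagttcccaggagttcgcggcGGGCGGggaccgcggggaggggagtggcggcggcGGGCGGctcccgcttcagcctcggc
Ociad2, chr5:73338948-73339197, minus strand: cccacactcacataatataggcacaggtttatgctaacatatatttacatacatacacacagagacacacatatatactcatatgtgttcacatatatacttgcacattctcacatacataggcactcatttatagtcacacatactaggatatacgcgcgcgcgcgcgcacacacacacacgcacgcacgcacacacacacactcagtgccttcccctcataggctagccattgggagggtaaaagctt
Fibcd1, chr2:31846006-31846255, minus strand: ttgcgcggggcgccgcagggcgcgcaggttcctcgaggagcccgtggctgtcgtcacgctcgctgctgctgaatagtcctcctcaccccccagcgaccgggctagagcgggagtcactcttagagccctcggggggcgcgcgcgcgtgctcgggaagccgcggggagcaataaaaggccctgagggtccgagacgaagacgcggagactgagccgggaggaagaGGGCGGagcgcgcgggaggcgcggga
Nr2f2, chr7:70366747-70366996, minus strand: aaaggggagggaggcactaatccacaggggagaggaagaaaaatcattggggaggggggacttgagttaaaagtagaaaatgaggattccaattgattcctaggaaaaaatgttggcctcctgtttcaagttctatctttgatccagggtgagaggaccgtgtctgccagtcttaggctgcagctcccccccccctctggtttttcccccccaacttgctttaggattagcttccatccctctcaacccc
The stretch of Nectin3 holds 5 GC boxes in 73.2% G and C, and that of Ociad2 none in 44.4%. Fibcd1 has 1 in 71.6% and Nr2f2 none in 50.0%. Over 32851 such stretches of all genes the median was 52.4% G and C, and 32.7% hold a GC box on either strand. The first of the Mpped1 stretches holds 7, and that of Wfs1 holds 4. The octamer ATGCAAAT, which POU-domain factors bind, is in 1.6% of all stretches, and the nuclear receptor half-site AGGTCA in 14%, searched on both strands. Neither is in any of the 7 stretches of these members. None of the 3 motifs contains another. The members of each aligned pair differ in base composition and in GC boxes.

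**Figure D2:**
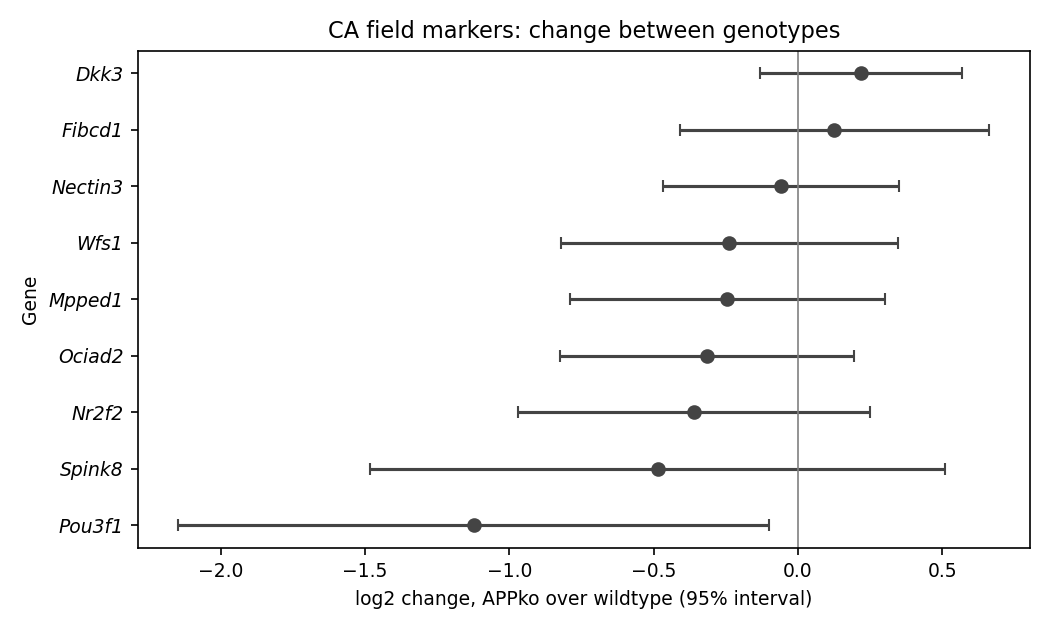
Fitted log2 change of each marker, APPko over wildtype (x axis), as a point with its 95% interval from edgeR. The interval of Pou3f1, -2.15 to -0.10, is the one that does not reach 0; its adjusted p was 0.20.

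Leaving out wildtype libraries 2 and 3 turned the sign of 3 of these uncalled differences. Nectin3 then had a log2 change of 0.33, Ociad2 of 0.25 and Fibcd1 of -0.21, none of them past the edgeR threshold. Among f libraries alone, where these 2 libraries make up most of the wildtype group, Nectin3 was lower in APPko by a log2 change of -0.51 (edgeR adjusted p = 0.0249) and Ociad2 by -0.78 (edgeR adjusted p = 0.0188). In that setting 8.47% of all tested genes were lower in APPko, and both calls belong to it alone. With scaling by library totals the log2 change of Nectin3 was 0.08, so its direction also depended on the scaling. Wfs1 turned to 0.07 without wildtype library 4, and Mpped1 to 0.17 among f libraries alone. With voom, which kept all libraries, Wfs1 turned to 0.09, Nectin3 to 0.28, Ociad2 to 0.19 and Fibcd1 to -0.04, none called. The other members kept their sign with voom. The sign was the same in all 26 other settings for Pou3f1 and Spink8, both lower in APPko, and for Dkk3, higher in APPko, and none of these 3 was called in any of them.

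Most of the markers varied more between dissected gyri than the median gene did, 7 of 9 in APPko and 8 of 9 in wildtype. The values take no account of level, and low counts add to the spread. Over 8 APPko libraries the coefficient of variation was 85.7% for Spink8, 70.4% for Pou3f1 and 46.3% for Nr2f2, against a median of 19.3% over all tested genes. Nectin3 and Ociad2 lay below that median in APPko, with 12.9% and 17.0%. Over 6 wildtype libraries the coefficient ran from 23.7% for Dkk3 to 61.8% for Pou3f1, against a median of 29.3%, and Dkk3 was the one member below it. Ociad2, with 53.7%, and Nectin3, with 43.1%, were less even in wildtype, where libraries 2 and 3 were high. The ratio of the highest to the lowest library reached 24.1 for Spink8 and 11.7 for Pou3f1 in APPko.

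**Figure D3:**
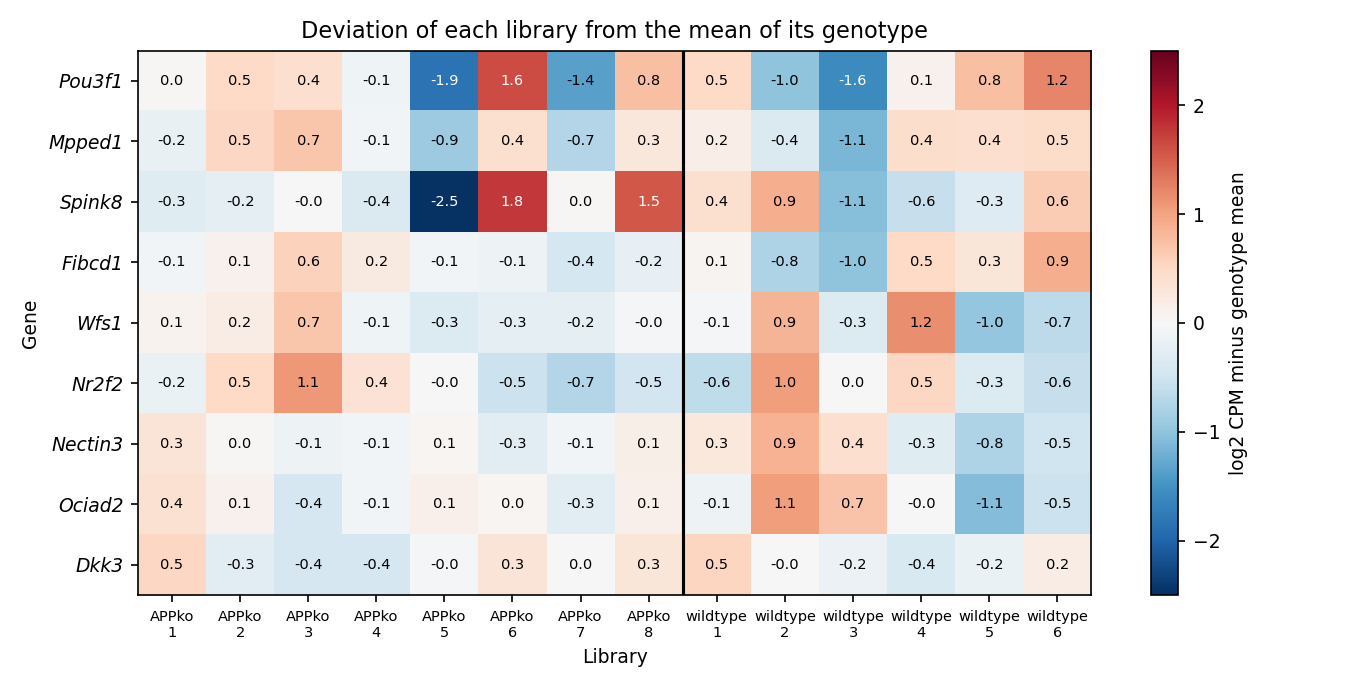
Deviation of each library (x axis) from the mean of its genotype in log2 CPM (colour and numbers), for the 9 markers (y axis). APPko libraries 5 and 7 are low in Pou3f1 and Mpped1, APPko library 3 is high in Nr2f2, Wfs1 and Mpped1, and wildtype library 3 is low in Pou3f1, Mpped1, Spink8 and Fibcd1 while high in Ociad2 and Nectin3.

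The 9 genes did not go up and down as one set. Of 36 pairs, 20 were positively correlated across the APPko libraries and 21 across the wildtype libraries, and 12 pairs were positive in both, with a median Pearson r of 0.10 in APPko and 0.11 in wildtype. In APPko 1 pair passed an exact permutation test of the pairings adjusted over the 36 pairs, and in wildtype 0 pairs did. With 6 libraries the smallest exact p is 0.001389, which over 36 pairs is adjusted to 0.05, so no single wildtype pair could pass. At an unadjusted exact p under 0.05 there were 7 pairs in APPko and 5 in wildtype. The pair that passed was Fibcd1 and Nr2f2 in APPko, whose upstream sequences, rich in G and C in Fibcd1 and not in Nr2f2, are printed with the gene positions. It had r = 0.959 (exact permutation p = 0.000223, adjusted p = 0.00804) and rho = 0.952 (exact permutation p = 0.00114, adjusted p = 0.0411), and r = 0.903 without APPko libraries 3 and 7. In wildtype the same pair had r = -0.502 (exact permutation p = 0.30), and the difference between genotypes was not tested.

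Other pairs were closely aligned without passing the adjustment. In wildtype Pou3f1 and Fibcd1 had r = 0.942 (exact permutation p = 0.0111, adjusted p = 0.113; rho = 0.829, exact p = 0.0583), and 0.558 without wildtype libraries 2 and 3. Fibcd1 and Mpped1 stood in the same order in all 6 wildtype libraries, with r = 0.924 (exact permutation p = 0.00139, adjusted p = 0.05) and 0.774 without wildtype libraries 2 and 3, against r = 0.591 in APPko (exact permutation p = 0.121). Pou3f1 and Mpped1 had r = 0.885 in APPko (exact permutation p = 0.00461, adjusted p = 0.083; rho = 0.762, exact p = 0.0368) and r = 0.921 in wildtype (exact permutation p = 0.0125, adjusted p = 0.113; rho = 0.829, exact p = 0.0583). Both rested on the libraries where the pair was low, since r was 0.502 without APPko libraries 5 and 7 and 0.248 without wildtype libraries 2 and 3. Nectin3 and Ociad2 had r = 0.642 in APPko (exact permutation p = 0.0844; rho = 0.81, exact p = 0.0218) and r = 0.934 in wildtype (exact permutation p = 0.00694, adjusted p = 0.113; rho = 0.943, exact p = 0.0167), and 0.782 without wildtype libraries 2 and 5. Pou3f1 and Spink8 had r = 0.825 in APPko (exact permutation p = 0.0109, adjusted p = 0.131; rho = 0.738, exact p = 0.0458) and r = 0.344 in wildtype. In wildtype Pou3f1, Mpped1 and Fibcd1 ran against Nectin3 and Ociad2, with r between -0.72 and -0.87 for these 6 pairs, none past the adjustment. These 3 genes were picked after their values were seen. Wfs1, also a marker of CA1, did not share this, with r = 0.496 with Nectin3 and 0.62 with Ociad2, nor did Spink8, with 0.235 and 0.063. The pair with the largest size, Pou3f1 and Ociad2, had r = -0.873 and, without wildtype libraries 2 and 3, r = -0.585. Over the 4 libraries then left, the 6 pairs kept their sign but ranged widely in size. Their r ran from -0.083 for Fibcd1 and Ociad2 to -0.863 for Mpped1 and Nectin3. Over the 8 APPko libraries the same 6 pairs were weaker, from r = -0.346 for Fibcd1 and Ociad2 to 0.103 for Pou3f1 and Ociad2.

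**Figure D4:**
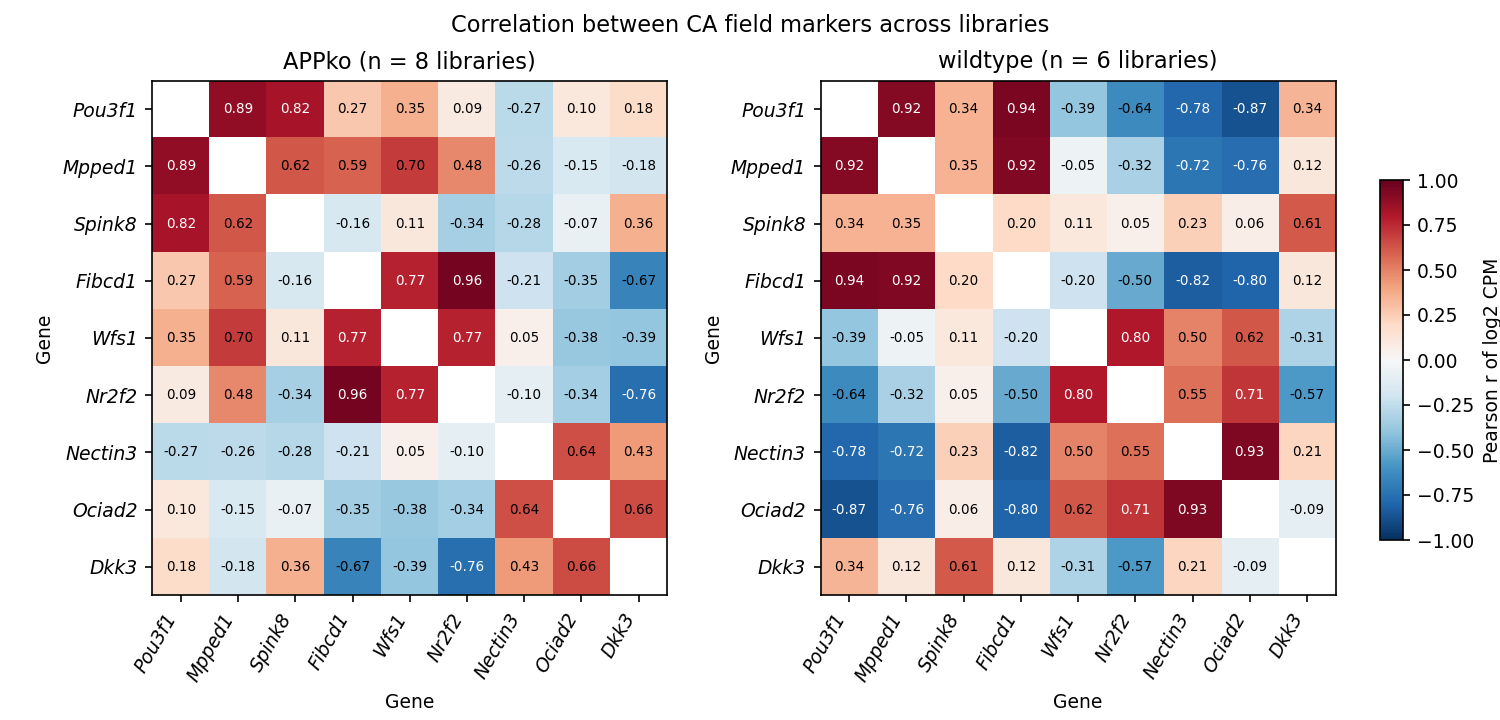
Pearson r of log2 CPM between the 9 markers (both axes) over 8 APPko libraries (left) and 6 wildtype libraries (right), red for positive and blue for negative values. Pou3f1 with Mpped1 is high on both sides (0.89 and 0.92), while Fibcd1 with Nr2f2 is 0.96 in APPko and -0.50 in wildtype.

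Each member was then set against 87 markers of 11 cell types or regions over the 14 libraries, with each gene centred within its genotype so that a genotype difference could not enter. Of these 783 relations 28 passed a permutation test adjusted over all of them (3.58%), 21 positive and 7 negative, and each of the 28 had the same sign within APPko and within wildtype. Their adjusted p ran from 0.0039 to 0.04 by Pearson's r and from 0.043 to 0.2 by Spearman's rho, and 10 of the 28 passed by both. Without wildtype libraries 2 and 3 the 28 correlations kept their sign, with sizes of 0.651 or more. Both checks reuse the libraries by which the 28 were picked, so agreement in sign was likely beforehand and is no separate evidence.

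Nr2f2 went with interneuron markers. It correlated with Lhx6, a transcription factor gene of interneurons from the medial ganglionic eminence, at r = 0.935 (permutation p = 3e-05, adjusted p = 0.0078; rho = 0.855, permutation p = 5e-04, adjusted p = 0.043), and r was 0.887 without APPko library 3 and wildtype library 2. With Sst it had r = 0.916 (permutation p = 1e-05, the smallest that 100000 permutations can give, adjusted p = 0.0039; rho = 0.89, permutation p = 0.00014, adjusted p = 0.043). Gad1 and Gad2, which encode the enzymes of GABA synthesis, had r = 0.84 and r = 0.826, and Adarb2, a marker of interneurons from the caudal ganglionic eminence, r = 0.811. In all, 5 of 11 interneuron markers correlated positively with Nr2f2 past the adjusted threshold and 0 of 11 negatively. Outside that list it passed with Amigo2 of the CA2 list (r = 0.867), Etv1 of the pyramidal list (0.8) and Coch of the CA3 list (0.786). Over these whole lists its median r was 0.041 for CA2, -0.032 for the pyramidal list and 0.286 for CA3. 3 of 15 granule cell markers ran against Nr2f2, Dsp with r = -0.847, Npnt with r = -0.834 and Lct with r = -0.83. Vascular and fibroblast markers leaned the same way as interneuron markers, with 9 of 10 positive and 0 past the threshold. Their median r with Nr2f2 was 0.407, against 0.601 for the interneuron list, and 0.535 against 0.549 without wildtype libraries 2 and 3. Over all 17345 genes compared, 0.605% reached r of 0.8 or more with Nr2f2. The summed interneuron level, most of it Sst, was highest in the libraries where Nr2f2 was high, 1270 RPKM in APPko library 3 and 1630 RPKM in wildtype library 2, against 664 to 1223 RPKM in the other APPko and 588 to 1504 RPKM in the other wildtype libraries.

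Wfs1 shared part of this pattern. It correlated with Amigo2, an adhesion gene that marks CA2, at r = 0.891 (permutation p = 0.00016, adjusted p = 0.026; rho = 0.829, permutation p = 0.002, adjusted p = 0.081) and with Gad2 at r = 0.822 (permutation p = 0.00061, adjusted p = 0.027; rho = 0.833, permutation p = 0.001, adjusted p = 0.053). Without wildtype libraries 2 and 4 these were 0.869 and 0.853. Of the 8 CA2 markers, 4 correlated positively with Wfs1, with a median r of -0.011. Among the 11 interneuron markers 8 did, with a median of 0.577, and among the 10 vascular and fibroblast markers 9 did, with a median of 0.468. With the mean level of the interneuron markers as a covariate, a setting added after the data were seen, the log2 change between genotypes was 0.26 for Nr2f2 and 0.36 for Wfs1, neither called, so the direction of both differences turned. The turn was not particular to Nr2f2 and Wfs1, since Nectin3 (0.15) and Ociad2 (0.05) turned too, neither called. Of the 11 interneuron markers 10 had a negative log2 change themselves (median -0.23). An upward shift was therefore likely beforehand for members that correlate with them, and a cause was not tested. Pou3f1, Mpped1 and Spink8 stayed lower in APPko, and Dkk3 and Fibcd1 stayed higher.

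Pou3f1 and Spink8 shared a partner of the pyramidal list. Ccn3, which encodes a secreted matrix protein and marks CA1, had r = 0.831 with Pou3f1 (permutation p = 0.00055, adjusted p = 0.027; rho = 0.864, permutation p = 3e-04, adjusted p = 0.043) and r = 0.824 with Spink8 (permutation p = 0.00077, adjusted p = 0.027; rho = 0.842, permutation p = 0.00048, adjusted p = 0.043). Without APPko library 5 and wildtype library 3 the value for Pou3f1 was 0.677, and without APPko libraries 5 and 6 that for Spink8 was 0.67. The level of Ccn3 was 1.34 to 14.1 CPM in APPko libraries and 2.41 to 15.6 CPM in wildtype libraries. Spink8 also went with Pvalb (r = 0.77), the calcium-binding protein gene of fast-spiking interneurons. Rgs14, a marker of CA2, had r = 0.828 with Fibcd1 and r = 0.813 with Mpped1. Over the 8 CA2 markers the median r was -0.125 with Fibcd1 and 0.09 with Mpped1.

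Nectin3 and Ociad2 passed with 1 listed marker each. Nectin3 correlated with St18, a transcription factor gene listed here for CA3, at r = 0.906 (permutation p = 0.00076, adjusted p = 0.027; rho = 0.916, permutation p = 0.00096, adjusted p = 0.053), and at 0.79 without wildtype libraries 2 and 3. Ociad2 passed with Kcnq5, a potassium channel gene listed for CA3, at r = 0.831, where 4.37% of all genes compared reached 0.8 or more. Its median r with the 10 CA3 markers was 0.678, and 0.403 without wildtype libraries 2 and 3. Of the 5 relations of Dkk3 past the threshold, 4 were negative. It had r = -0.858 with Calb2, -0.843 with Adarb2, -0.803 with Sst and -0.78 with Calb1, and r = 0.767 with Sv2c, a synaptic vesicle gene listed for mossy cells. Sst and Adarb2 moved against Dkk3 and with Nr2f2.

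**Figure D5:**
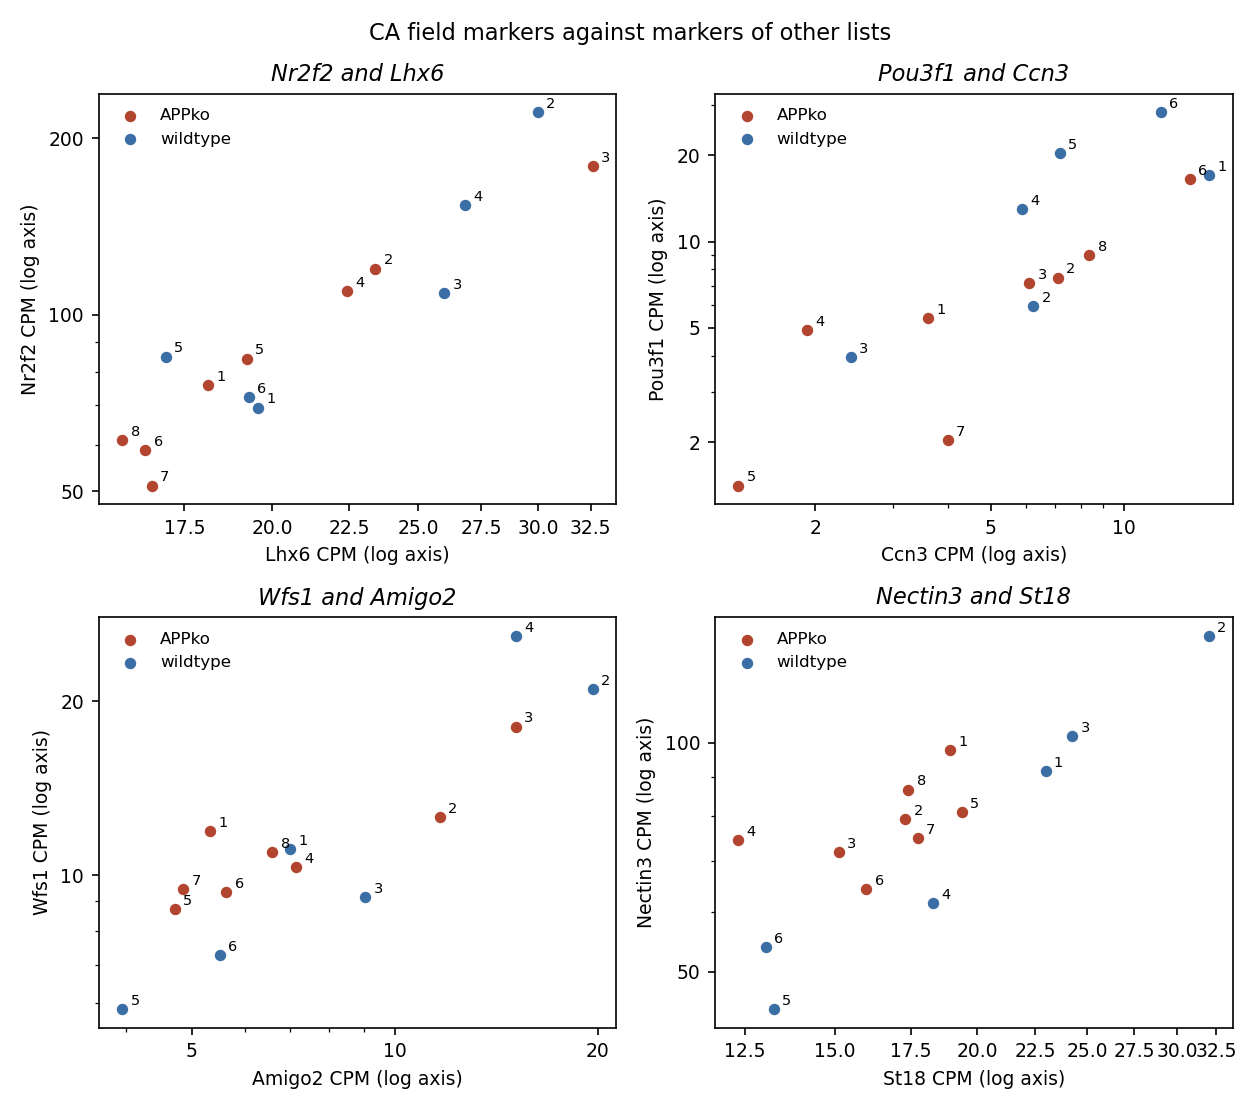
CPM of 4 markers (y axes) against the marker of another list (x axes) in APPko (red) and wildtype (blue) libraries, numbered by replicate, on log axes. Nr2f2 follows Lhx6 and Pou3f1 follows Ccn3 across both genotypes, whereas the high end of Nectin3 with St18 is set by wildtype libraries 1, 2 and 3 and APPko library 1.

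As a description over the same 14 centred libraries, the gene most like each member among 17345 genes was Tox for Pou3f1 (r = 0.973), Esm1 for Nr2f2 (0.95), Ier5 for Dkk3 (0.936), Slc27a2 for Spink8 (0.933), Slc16a1 for Nectin3 (0.97), Actr5 for Fibcd1 (0.935), Arhgap29 for Wfs1 (0.94), Plaa for Ociad2 (0.968) and Cobl for Mpped1 (0.942). The next were Tshz2 and Gm38073 for Pou3f1, Lhx6 and Tmem132c for Nr2f2, Pcgf3 and Brinp1 for Dkk3, and Arhgef3 and Rxfp1 for Spink8. For Nectin3 they were Plaa and Lifr, for Fibcd1 Apbb1ip and Cux1, for Wfs1 Gsta3 and Itih2, for Ociad2 Rheb and Ankrd29, and for Mpped1 Tecta and Dhx35. Plaa was near the top for both Nectin3 and Ociad2. A value of 0.8 or more was common for Ociad2 (4.37% of the genes) and Nectin3 (2.09%) and rare for Spink8 (0.0749%) and Wfs1 (0.15%).

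The other marker lists were read in the same fit. Of 7 further CA1 and pyramidal markers, 0 were called in either direction (median log2 change -0.40), with Neurod6 at 246 ± 81.7 CPM in APPko and 192 ± 66.5 CPM in wildtype, and Etv1 at 50.0 ± 19.6 CPM in APPko and 71.7 ± 24.4 CPM in wildtype. 0 of 8 CA2 markers were called (median -0.02), led in level by Pcp4. 0 of 10 CA3 markers were called (median -0.06), led by Cpne4 with 159 ± 13.8 CPM in APPko and 157 ± 37.8 CPM in wildtype. 2 of 15 granule cell markers were called lower in APPko and 0 higher, beside 1.41% of all tested genes called lower. Log2 changes were negative for 13 of the 15, beside 11451 of 22150 tested genes. The 2 called were C1ql3, which encodes a secreted synaptic organizer (log2 change -0.78, edgeR adjusted p = 0.0471), and Rfx3, a transcription factor gene (-0.52, edgeR adjusted p = 0.0309). Both calls ended without wildtype libraries 2 and 3 (C1ql3 log2 change -0.53, edgeR adjusted p = 0.299; Rfx3 -0.36, edgeR adjusted p = 0.167). With 1 library left out at a time their edgeR adjusted p ran from 0.0161 to 0.127 for C1ql3 and from 0.00959 to 0.0922 for Rfx3. Prox1 had 152 ± 33.4 CPM in APPko and 158 ± 40.5 CPM in wildtype. 0 of 7 mossy cell, 0 of 11 interneuron, 0 of 7 cortex, 0 of 10 vascular and fibroblast, 0 of 4 astrocyte, 0 of 4 microglia and 0 of 4 oligodendrocyte markers were called by edgeR. DESeq2 called 1 CA3 marker higher and 1 lower, 4 granule cell markers lower, 1 interneuron marker higher and 3 lower, 1 vascular or fibroblast marker higher and 1 astrocyte marker lower in APPko, where it called 10% of all the genes it tested. At an unadjusted edgeR p under 0.05 there were 3 of the 7 further CA1 and pyramidal, 0 of the 8 CA2, 4 of the 10 CA3, 5 of the 15 granule cell, 4 of the 11 interneuron, 1 of the 7 mossy cell, 2 of the 7 cortex, 3 of the 10 vascular and fibroblast and 1 of the 4 astrocyte markers, and 0 of the 4 microglia and 0 of the 4 oligodendrocyte markers, beside the 20.4% of all tested genes.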

How the data were processed

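Dentate gyri of 8 APPko and 6 wildtype slice cultures were sequenced as 151 bp pairs after 12 and then 10 amplification cycles, per the labels' protocols. The deposited values are raw read counts per gene, 1 table per library; the submitters' processing notes name featureCounts 2.0.1, STAR 2.7.8a and cutadapt 3.5, and the build GRCm38 (mm10). Reads carry no molecular identifiers. Libraries were grouped by title. Counts were filtered by expression, TMM-scaled and tested with edgeR 4.0.16 (quasi-likelihood, R 4.3.3, Benjamini-Hochberg, threshold 0.05); DESeq2 1.42.0 and limma 3.58.1 were alternatives. CPM are TMM-scaled. RPKM divide them by the union exon length of the deposited annotation. Correlations used log2 CPM (prior count 2), with exact permutation of pairings for member pairs and 100000 permutations within genotype for markers (Python 3.11.15, scipy 1.17.1). The edgeR fit and the permutation test against listed markers were tried on simulated data, and the exact test of member pairs was not. The text names all 9 members, App, up to 3 genes of each list by level, listed genes past the threshold and the 3 most alike genes of each member; markers named for their correlation, and the pairs whose sequences are shown, were chosen after their values were seen. The members and lists were chosen with earlier results of these data known. Nov and Ctgf, older symbols of listed genes, are not among the row names, while Ccn3 and Ccn2 are. Some relations with listed markers are not reported here.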

Additional observations from a re-analysis of the deposited data

Results flagged for a closer look

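In APPko, library 3 held 18.1 CPM of Wfs1, well above the next highest APPko library with 12.6 CPM. The gap was 0.585 of the range of the 8 libraries, past Dixon's critical value of 0.526. The same library was the highest APPko library for Nr2f2, Fibcd1, Mpped1, Amigo2, Lhx6, Sst and Gad2. It was the lowest for Ociad2 (253 CPM) and for Neurod6, with 78.9 CPM against an APPko median of 263 CPM. The summed level of the 7 further CA1 and pyramidal markers was also lowest there (85.2 RPKM). Of 18 groups checked (9 genes in 2 genotypes) Wfs1 in APPko was the one so marked, and chance marks about 1 in 20.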

How the results depend on the processing

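The count of members called was 0 in each direction under all 26 other settings, except for the f libraries alone, which called 2 lower in APPko. Over all tested genes the count was far less stable than 209 higher and 312 lower. It was 711 higher and 973 lower with DESeq2, 718 and 728 with the f or m suffix in the fit, and 1674 and 1998 in the f libraries alone. It was 19 and 16 without wildtype libraries 2 and 3, and 5 and 7 with the interneuron marker level as a covariate (added after seeing the data). Those lower in APPko numbered 119 with library totals alone, 170 with voom and 170 without an expression filter. Leaving out 1 library gave 22 to 735 higher and 16 to 701 lower, and no member called. With the replicate number as a block there were 10 higher and 11 lower genes and no member. Same-numbered libraries correlated between -0.339 and 0.186, 3 of 6 pairs over 0.1, and 5 of 12 libraries were closest to their own number. These values do not settle whether equal numbers pair the cultures, and the labels do not say. The causes were not tested. Pairs past the adjusted threshold in APPko numbered 1 under both alternatives. Depth limits Spink8 most, with 8 counts in its lowest library. Fibcd1 had at least 34 counts and Pou3f1 at least 40.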
